A study of Homo sapiens with 4 samples.

Results

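The genes described here are 8 transcription factors that mark and maintain the mesenchymal state of fibroblasts: TWIST1, TWIST2, PRRX1, SNAI1, SNAI2, ZEB1, ZEB2 and TBX15. They were chosen by name, with earlier results of these data known. Each was given a window made of its gene body in GENCODE release 44 on hg19 and 50 kb on either side, and every listed binding interval that overlapped a window by 1 bp or more was taken. This gave 56 intervals of the 58827 listed over the genome. The windows were 8 of the 20163 windows of protein-coding genes, and no window of the 8 overlapped another.

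The intervals came from CUT&RUN. In this assay an antibody brings a nuclease to its target on chromatin, and the fragments cut free are sequenced. The cells were BJ, an established line of human foreskin fibroblasts, in which either V5-tagged full-length SOX2 or its V5-tagged DNA-binding domain (SOX2-DBD) had been expressed ectopically for 48 h, and the antibody recognised the V5 tag in both. There were 2 samples per group, but the peak lists used here are attached to replicate 1 of each group. Whether they were called on that replicate alone or on pooled replicates is not stated, so with 1 full list per group no value below has an error between replicates and no test between the proteins was possible. The vector and its promoter are not given in the sources used here, and cells without an introduced protein were not analysed here.

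A fibroblast keeps its identity through factors of this kind. TWIST, SNAI and ZEB proteins bind E-box sequences and are best known for repressing epithelial genes such as E-cadherin during the epithelial to mesenchymal transition, while PRRX1 and TBX15 are patterning factors of limb and skin mesenchyme. SOX2 is a pioneer factor, able to engage compacted chromatin, and is used with other factors to turn fibroblasts into pluripotent cells, a process in which the mesenchymal programme is lost. The comparison asks where at these genes SOX2 was mapped and which of those places were also listed for the DNA-binding domain alone. The lists hold binding positions and not expression, so neither the fibroblast identity of the cells nor the activity of the genes was measured.

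An interval in both lists had the same start and end in both, and is called shared. The others are SOX2-only or DBD-only. A shared interval carries 1 set of signal values, and the group in which it was measured is not stated. Over the genome there were 43607 SOX2-only, 14300 shared and 920 DBD-only intervals. In the 8 windows there were 38 SOX2-only, 17 shared and 1 DBD-only. Of the 8 genes, 7 had at least 1 interval of the SOX2 list, against 69.5% of all protein-coding genes, and the same 7 had a SOX2-only interval, against 65.1%. A shared interval was found at 6 of the 8 genes, against 37.6% of all protein-coding genes, and a DBD-only interval at 1 of 8, against 4.72%. At least 5 intervals of the SOX2 list lay at 6 of the 8 genes, against 26.6%. The windows of the 8 genes were longer than most, with a median of 186.7 kb against 127.2 kb over all protein-coding genes, so the density per Mb is given for each gene below, and the part of window length in these counts was not tested.

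The positions differed widely from gene to gene, as the map of distances from the transcription start shows. No interval centre lay within 1 kb of a transcription start of any annotated gene. None of the 8 genes had a SOX2-list interval within 1 kb of the start of its canonical transcript, against 1.93% of all protein-coding genes, and 3 of 8 (TWIST1, PRRX1 and SNAI2) had one within 10 kb, against 24.8%. The bodies of 7 of the 8 genes were overlapped by a SOX2-list interval, against 38.3% of all protein-coding genes. The 8 bodies were 4.14 to 211.3 kb long, and the part of body length in this count was not tested. Of the 56 interval centres, 27 lay in the body of the gene and 29 outside it, and 18 lay upstream of the start. The TWIST1 body is that of a long isoform, and its 6 centres there lay outside the canonical transcript. Annotated exons were touched by 3 intervals. The positions of interval centres and the exon count were not set beside all 58827 intervals, so they describe the 56 intervals alone.

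**Figure D1:**
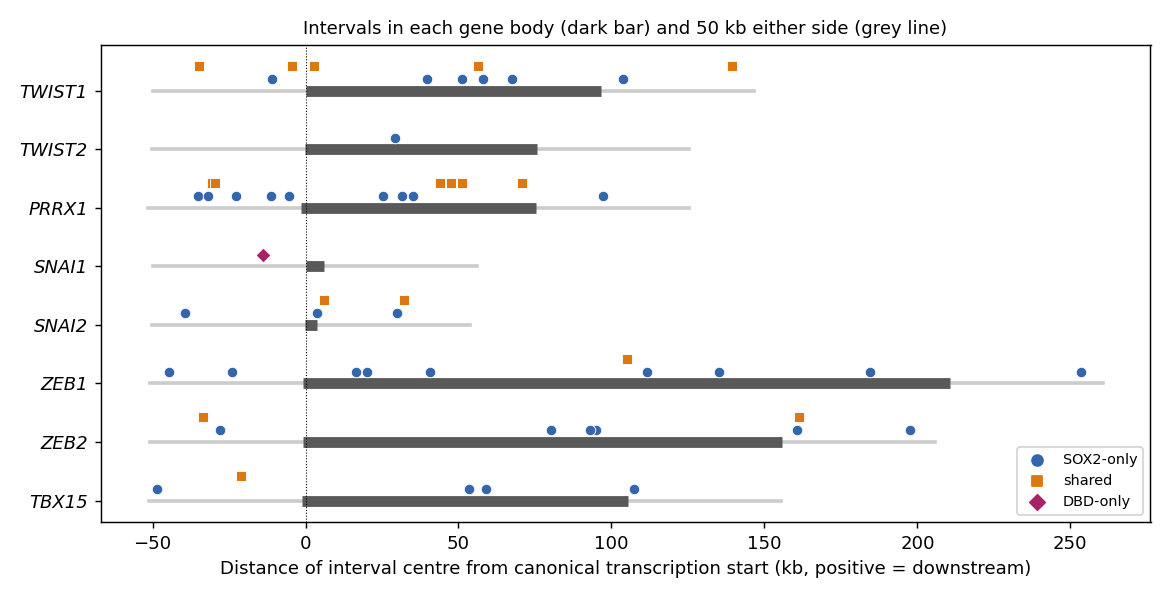
Distance of each interval centre from the canonical transcription start of its gene, in kb, with downstream to the right; dark bars are gene bodies and grey lines the 50 kb either side. Circles are SOX2-only, squares shared and diamonds DBD-only intervals; the 15 PRRX1 intervals lie on both sides of the start, TWIST2 has 1 interval and SNAI1 has a DBD-only interval alone.

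TWIST1 and TWIST2, closely related basic helix-loop-helix factors of mesoderm and skull development, differed widely in their number of intervals. TWIST1 (ENSG00000122691.13_11, chr7:19060614-19157259, minus strand) had 11 SOX2-list intervals in a window of 196.6 kb, of which 6 were SOX2-only and 5 shared. That is 55.9 intervals per Mb (exact Poisson 95% interval 27.9 to 100, for counting error only), or 2.67 times the density of chromosome 7, and 92.9% of protein-coding genes had a lower density. TWIST2 (ENSG00000233608.5_8, chr2:239756673-239832230, plus strand) had 1 interval in 175.6 kb, a density of 5.70 per Mb (0.144 to 31.7) or 0.244 times that of its chromosome. The counting intervals of the genes overlap narrowly, the lower limit of TWIST1 (27.9) being below the upper limit of TWIST2 (31.7), and the difference was not tested.

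The TWIST1 intervals lay on both sides of the start and reached as far as 139.4 kb downstream of it. The canonical TWIST1 transcript is short, and the 96.7 kb gene body is set by an isoform, annotated as a target of nonsense-mediated decay, that runs far downstream. Nearest to the start was a shared interval at chr7:19154006-19154658, 2.9 kb downstream, past the end of the canonical transcript, with a total signal of 4728. Total signal is the sum deposited with the interval, which for shared intervals need not cover the listed positions alone. Another shared interval lay 4.5 kb upstream at chr7:19161565-19161853, outside genes, with 2115. Another, at chr7:19100407-19101263 in the body of the long isoform 56.4 kb downstream, had the highest value of the 5, 5641, which exceeds 89.7% of all shared intervals. A further one lay 139.4 kb downstream at chr7:19017742-19018043, in HDAC9, a histone deacetylase gene that neighbours TWIST1, with 2514. The shared intervals of TWIST1 thus spanned both flanks of the gene, and 3 of the 5 were above the genome median of the shared class, 2742. The 6 SOX2-only intervals had total signals of 1322 to 5814, the highest at chr7:19052790-19054246 outside genes.

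The sequences below are shared intervals on the upstream and downstream sides of TWIST1, read from the GRCh37 plus strand. They show the 2 motifs that are counted further on. Not every shared interval holds one. The central 200 bases of the interval 2.9 kb downstream, not printed, hold 0 SOX cores and 0 AP-1 sites. Capitals mark each ACAAAG or ACAATG (the SOX core) and each TGACTCA or TGAGTCA (the AP-1 site) on either strand, so CTTTGT and CATTGT are SOX cores on the minus strand. The first is the whole interval 4.5 kb upstream, and the other gives the central 200 bases of the interval in HDAC9 (chr7:19017793-19017992).
TWIST1 4.5 kb upstream: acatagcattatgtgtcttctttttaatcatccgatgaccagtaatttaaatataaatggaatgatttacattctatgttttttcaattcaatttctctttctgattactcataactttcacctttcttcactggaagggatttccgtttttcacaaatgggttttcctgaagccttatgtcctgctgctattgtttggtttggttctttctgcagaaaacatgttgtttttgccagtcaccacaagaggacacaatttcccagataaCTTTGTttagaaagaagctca
TWIST1 139.4 kb downstream: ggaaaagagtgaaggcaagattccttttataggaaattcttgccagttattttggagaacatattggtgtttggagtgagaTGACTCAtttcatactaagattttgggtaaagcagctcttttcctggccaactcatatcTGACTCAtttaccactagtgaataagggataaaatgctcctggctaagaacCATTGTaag
The first holds 1 SOX core and 0 AP-1 sites, and the other holds 2 AP-1 sites and 1 SOX core. The single TWIST2 interval, at chr2:239785719-239786549 inside the gene 29.4 kb from the start, was SOX2-only, with a total signal of 2504.

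PRRX1, a paired-related homeodomain factor of limb and craniofacial mesenchyme, had the most intervals. Its window (gene ENSG00000116132.12_7, chr1:170631869-170708562, plus strand) held 15 SOX2-list intervals in 176.7 kb, 9 SOX2-only and 6 shared. The density of 84.9 per Mb (47.5 to 140) was 3.67 times that of chromosome 1 and ranked 222 among 20163 protein-coding genes, with 98.9% of them lower. The intervals formed an upstream and a downstream group. Upstream, 7 intervals lay between 35.1 and 5.4 kb from the start, 5 of them within an unnamed long non-coding RNA gene (ENSG00000235303). Inside the gene, 3 SOX2-only intervals in intron 1 were followed by 3 shared intervals in the same intron, 44.1 to 51.0 kb from the start, and 1 more shared interval lay in intron 3. No interval centre lay between 5.4 kb upstream and 25.3 kb downstream of the start.

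The PRRX1 shared interval of highest total signal lay 29.7 kb upstream at chr1:170603232-170603969, with a total signal of 5950, above 91.6% of shared intervals. The next of its class was the intron 1 interval at chr1:170677274-170677376, only 103 bp wide, with 3375. The third shared interval by signal, at chr1:170684156-170684484 in intron 1, had 1639, and the other 3 had 1199 to 1554. Of the 6, 4 fell below the genome median of the class. The 103-bp interval is 1 of 2 shared intervals at these genes whose region of maximum signal lay at least in part outside the interval itself. Its total of 3375 is more than 103 bases at its maximum signal of 11 can add up to. Its width and its signal thus do not describe the same stretch. The strongest SOX2-only interval, at chr1:170664422-170665162 in intron 1, had 2823, and the interval nearest the start, at chr1:170627713-170627991 outside genes, was SOX2-only with 1580. The 2 strongest shared intervals are printed here, the first by its central 200 bases (chr1:170603501-170603700) and the second whole, because both carry an AP-1 site.
PRRX1 29.7 kb upstream: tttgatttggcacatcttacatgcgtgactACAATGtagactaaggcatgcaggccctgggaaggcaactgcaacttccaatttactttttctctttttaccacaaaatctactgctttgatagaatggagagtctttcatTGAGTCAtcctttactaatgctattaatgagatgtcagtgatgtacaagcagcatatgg
PRRX1 44.1 kb downstream: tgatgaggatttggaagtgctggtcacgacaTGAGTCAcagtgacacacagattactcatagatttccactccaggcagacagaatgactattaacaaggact
The first holds 1 SOX core beside its AP-1 site. The second holds 1 AP-1 site and 0 SOX cores.

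TBX15, a T-box factor of skeletal and skin mesenchyme (ENSG00000092607.15_13, chr1:119425669-119532179, minus strand), had 5 SOX2-list intervals in 206.5 kb, 4 SOX2-only and 1 shared. The density of 24.2 per Mb (7.86 to 56.5) was 1.05 times that of chromosome 1. The SOX2-only interval of highest total signal at any of the 8 genes lay here, just past the end of the gene at chr1:119422711-119424316, outside genes. It was 1606 bp wide, with a total signal of 7679, above 99.2% of SOX2-only intervals. The shared interval, nearest to the start at 21.0 kb upstream (chr1:119551790-119552147, outside genes), had 1460, above 9.89% of its class. The other SOX2-only intervals lay in intron 1 (1919), in intron 2 (4267) and in WARS2, a mitochondrial tryptophan tRNA ligase gene, 48.7 kb upstream (4140). The central 200 bases of the interval of highest signal (chr1:119423414-119423613) are printed as an example of a SOX2-only site.
TBX15 107.5 kb downstream: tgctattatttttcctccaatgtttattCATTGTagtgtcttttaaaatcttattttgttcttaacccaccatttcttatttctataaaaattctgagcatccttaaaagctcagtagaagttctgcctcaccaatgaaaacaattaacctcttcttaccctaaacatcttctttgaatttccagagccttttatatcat
They hold 1 SOX core and 0 AP-1 sites, and the whole interval holds 6 SOX cores.

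ZEB1 and ZEB2, large zinc-finger homeodomain repressors of epithelial genes, had similar densities. ZEB1 (ENSG00000148516.23_13, chr10:31607424-31818742, plus strand) had 10 SOX2-list intervals in 311.3 kb, or 32.1 per Mb (15.4 to 59.1), and ZEB2 (ENSG00000169554.23_18, chr2:145121931-145278624, minus strand) had 8 in 256.7 kb, or 31.2 per Mb (13.5 to 61.4). These were 1.60 and 1.34 times the densities of their chromosomes. At ZEB1, 9 of the 10 were SOX2-only, 6 of the 10 lay in intron 1, and none lay within 10 kb of the start; the nearest was 16.5 kb into the gene at chr10:31624394-31624986, with a total signal of 3016. The SOX2-only interval of highest signal, at chr10:31791852-31793259 in intron 4, had 6542, above 97.9% of its class. The single shared ZEB1 interval, at chr10:31713286-31713373 in intron 1, was only 88 bp wide, with 1576, above 14.0% of its class. That total is more than 88 bases at its maximum signal of 10 can add up to, so here too width and signal differ in extent. Both upstream ZEB1 intervals lay in ZEB1-AS1, the divergent long non-coding RNA gene.

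At ZEB2, 6 intervals were SOX2-only and 2 shared. The strongest shared interval of all 8 genes lay 33.5 kb upstream of the ZEB2 start at chr2:145310920-145311429, in the long non-coding RNA gene LINC01412, with a total signal of 6943, above 95.5% of shared intervals. A SOX2-only interval in the same RNA gene, at chr2:145305244-145305984, was the nearest to the start, with 4561. The other shared interval lay past the end of ZEB2 at chr2:145116253-145116504, outside genes, with 2263. Its region of maximum signal reached beyond the interval. The strongest SOX2-only interval, at chr2:145197120-145197929 in intron 2, had 4685. A SOX2-only interval at chr2:145182352-145182802 shared 72 of its 451 bases with an exon of the canonical transcript and touched coding sequence, the only one of the 56 to do so. A further interval centre lay in GTDC1, a glycosyltransferase-like gene downstream of ZEB2. The central 200 bases of the strongest shared interval (chr2:145311075-145311274) hold 1 AP-1 site and 0 SOX cores.
ZEB2 33.5 kb upstream: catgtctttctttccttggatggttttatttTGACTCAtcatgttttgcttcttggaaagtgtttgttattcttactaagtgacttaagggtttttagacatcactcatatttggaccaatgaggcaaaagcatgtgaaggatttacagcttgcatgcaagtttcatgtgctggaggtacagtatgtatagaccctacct

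SNAI1, the zinc-finger repressor Snail, was the only one of the 8 genes with 0 SOX2-list intervals. Its window (ENSG00000124216.4_6, chr20:48599517-48605423, plus strand) was 105.9 kb long. A count of 0 there allows up to 28.3 intervals per Mb if 3 counts are taken as the limit. The exact Poisson interval given for the other genes reaches 34.8 per Mb here. Both limits are above the 15.2 per Mb of chromosome 20, so a lower density than that of the chromosome was not detectable. The window held the only DBD-only interval of the set, 13.8 kb upstream of the start at chr20:48585497-48585841, outside genes, with a total signal of 3209. It was narrow for its class, 345 bp against a median of 1036.5 bp, and its signal exceeded that of 25.0% of DBD-only intervals. Its central 200 bases (chr20:48585569-48585768) are printed because it is the one place at these genes listed for the DNA-binding domain without full-length SOX2. They hold 1 SOX core.
SNAI1 13.8 kb upstream: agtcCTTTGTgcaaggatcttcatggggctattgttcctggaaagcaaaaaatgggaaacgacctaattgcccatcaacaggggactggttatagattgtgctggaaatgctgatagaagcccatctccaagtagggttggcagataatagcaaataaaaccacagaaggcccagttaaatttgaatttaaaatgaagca

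SNAI2, the zinc-finger repressor Slug, differed from SNAI1 in having intervals of both other classes. Its window (ENSG00000019549.13_11, chr8:49830157-49834299, minus strand) was of almost the same length, 104.1 kb, and held 5 SOX2-list intervals, 3 SOX2-only and 2 shared. The density was 48.0 per Mb (15.6 to 112), 2.37 times that of its chromosome. The nearest interval to the start, 3.6 kb downstream at chr8:49830065-49830703, was SOX2-only with a total signal of 1932, and 547 of its 639 bases lay in the untranslated end of the last exon. A shared interval just past the gene, at chr8:49827813-49828448, had a total signal of 4794, above 83.1% of shared intervals. The other shared interval, at chr8:49801651-49801918, had 1391.

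Over the 8 genes, the density of SOX2-list intervals had a median of 31.6 per Mb, against 11.7 per Mb over all protein-coding genes. It was above the density of the chromosome at 6 of the 8 genes, against 42.5% of all protein-coding genes. Other factors, in 2 lists, were set beside them, chosen by name and also with earlier results of these data known. The values side by side are thus a description and not a test. For 30 other mesenchymal transcription factors the median was 14.0 per Mb, with 24 of 30 holding a SOX2-list interval, 11 of 30 a shared interval and 13 of 30 above the density of their chromosome. The highest in that list were TCF21 (47.0 per Mb), a factor of the epicardial and kidney mesenchyme, TCF4 (35.0 per Mb), an E protein that pairs with TWIST factors, and EBF1 (29.8 per Mb), a factor of B cells and adipose stroma. For 18 epithelial factors the median was 12.5 per Mb, with 15 of 18 holding a SOX2-list interval, 9 of 18 a shared interval and 6 of 18 above the density of their chromosome. KLF5 (57.1 per Mb), ELF3 (36.6 per Mb) and GRHL2 (36.1 per Mb), factors of gut and surface epithelia, were highest there. In each of these lists 1 pair of windows overlapped. Their windows were shorter than those of the 8 genes, which had a median of 186.7 kb. The median was 109.4 kb in the mesenchymal list and 134.3 kb in the epithelial list. The part of window length in the counts of genes was not tested. The single densities of the lists overlapped widely with those of the 8 genes, as the plot of densities shows.

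**Figure D2:**
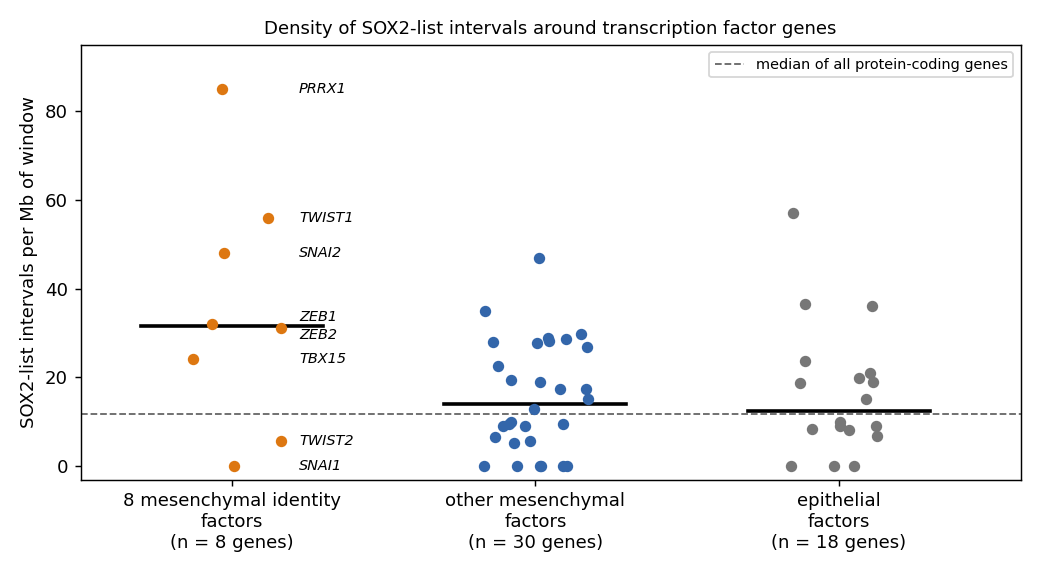
SOX2-list intervals per Mb of window, 1 point per gene, for the 8 genes, 30 other mesenchymal factors and 18 epithelial factors; thick bars are list medians (31.6, 14.0 and 12.5) and the dashed line is the median of all protein-coding genes (11.7). PRRX1 at 84.9 per Mb lies above every other gene shown, and TWIST2 and SNAI1 lie below the dashed line.

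Of the 55 SOX2-list intervals at the 8 genes, 17 were shared with SOX2-DBD (30.9%, Wilson 95% interval 20.3 to 44, for counting error over intervals), against 24.7% (24.3 to 25.0) of the whole SOX2 list. The genome value lies inside the interval, so a difference was not detectable with 55 intervals. By gene the shared portion was 45.5% at TWIST1 (21.3 to 72), 40.0% at PRRX1 (19.8 to 64.3), 40.0% at SNAI2 (11.8 to 76.9), 25.0% at ZEB2 (7.15 to 59.1), 20.0% at TBX15 (3.62 to 62.4) and 10.0% at ZEB1 (1.79 to 40.4). Each of these 6 intervals includes the genome value and each overlaps all the others. In the other mesenchymal list it was 23.2% (15.4 to 33.4) and in the epithelial list 27.1% (16.6 to 41.0).

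The total signal at these genes was set beside the same class over the genome. The 38 SOX2-only intervals had values of 1187 to 7679, with a median of 2401.5 against 2278 for the class over the genome, and 22 of 38 stood at or above that genome median. The 17 shared intervals had values of 1199 to 6943, with a median of 2263 against 2742, and 7 of 17 stood at or above it. Widths had a median of 600.5 bp in SOX2-only and 302 bp in shared intervals, against 559 and 373 bp over the genome. Each value is compared within its class, because the scale of the values is not stated and shared values may come from another library. Some shared totals, as at PRRX1 and ZEB1 above, exceed what the listed width can hold. Shared totals and widths therefore need not describe the same stretch.

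**Figure D3:**
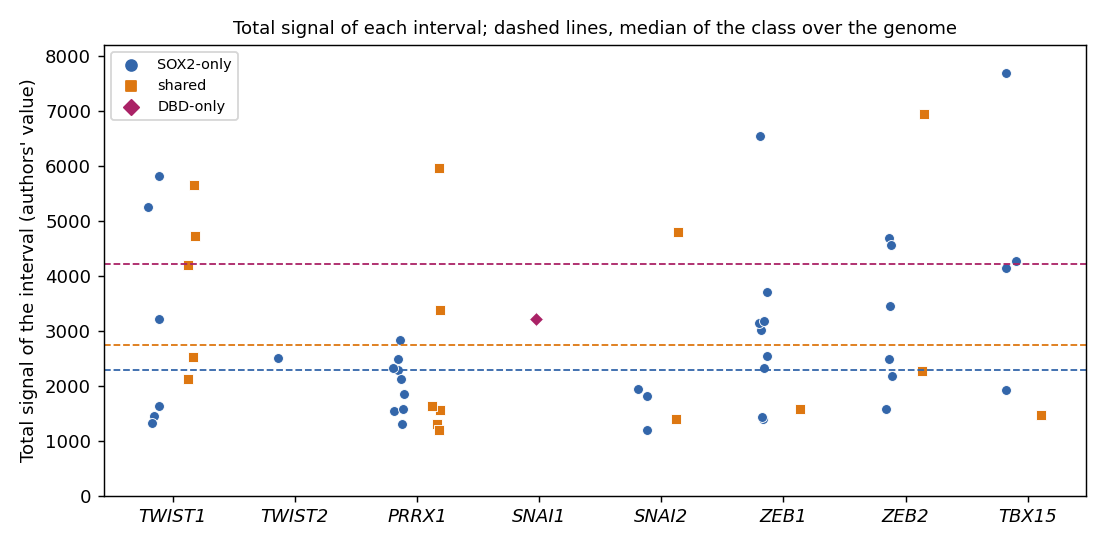
Total signal of each of the 56 intervals by gene, as given by the authors; circles are SOX2-only, squares shared and the diamond DBD-only, and dashed lines in the same colours are the class medians over the genome (2278, 2742 and 4204.5). The highest SOX2-only value is at TBX15 (7679) and the highest shared value at ZEB2 (6943).

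A further SOX2 list that the authors named as down-sampled gave positions only. It covered 39 of the 55 SOX2-list intervals at these genes (70.9%, 57.9 to 81.2), against 64.3% (63.9 to 64.7) of the whole list. PRRX1 kept 13 of its 15 intervals and TWIST1 6 of its 11. The SNAI1 interval had no counterpart, and neither had any other of the 920 DBD-only intervals of the genome. Of the classes, 29 of 38 SOX2-only (76.3%, 60.8 to 87.0) and 10 of 17 shared intervals (58.8%, 36.0 to 78.4) were covered. Over the genome 64.3% of each of these classes was covered. Both counting intervals include that value, and they overlap.

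The SOX core, the sequence that the SOX2 DNA-binding domain contacts, was sought in 200 bp at each interval centre. The core was present in 21 of 55 windows (38.2%, 26.5 to 51.4), against 12 of 55 (21.8%, 12.9 to 34.4) in windows 10 kb downstream. These counting intervals overlap, and the difference was not tested. For motifs, downstream means toward higher coordinates on the plus strand, whatever the strand of the gene. Over the whole SOX2 list it was present in 47.3%, against 27.7% downstream. It was found in 14 of 38 SOX2-only and 7 of 17 shared windows (36.8% and 41.2%). A match is a description of the letters in the window and not evidence of binding. The GC content of the windows was 33.2%, against 33.9% in the whole list. That of the downstream windows was not measured, so the part of base composition in the motif values was not tested.

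A further 3 motifs were counted on both strands. The AP-1 site, bound by FOS and JUN factors, was present in 4 of 17 shared windows (23.5%, 9.56 to 47.3) and 2 of 38 SOX2-only windows (5.26%, 1.46 to 17.3), against 16.9% and 6.59% of these classes over the genome. In all it was present in 6 of 55 windows (10.9%, 5.10 to 21.8), against 9.14% of the whole list. The 4 shared windows are those printed above from PRRX1 (both), ZEB2 and the HDAC9 interval of TWIST1. A 200-bp window covers a smaller part of the SOX2-only intervals (median width 600.5 bp) than of the shared ones (302 bp). AP-1 sites outside the window occur in both classes and are not counted. The part of width in the AP-1 values was not tested. The E-box CAGGTG, a site of SNAI and ZEB proteins, was present in 1 of 55 windows (1.82%, 0.322 to 9.61), an intron of ZEB2, and in 7 of 55 downstream windows (12.7%, 6.30 to 24.0). Over the whole list the values were 1.42% and 13.2%. The counting intervals at the 8 genes overlap, and the part of base composition was not tested. These counts cover the central 200 bp alone. Some SOX2-only intervals hold the E-box further from their centre, such as the TWIST2 interval, with 2. The TEAD sequence GGAATG was present in 8 of 55 windows (14.5%, 7.56 to 26.2), against 16.3% of the whole list. For all 4 motifs the counting intervals at the 8 genes include the value of the whole list.

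**Figure D4:**
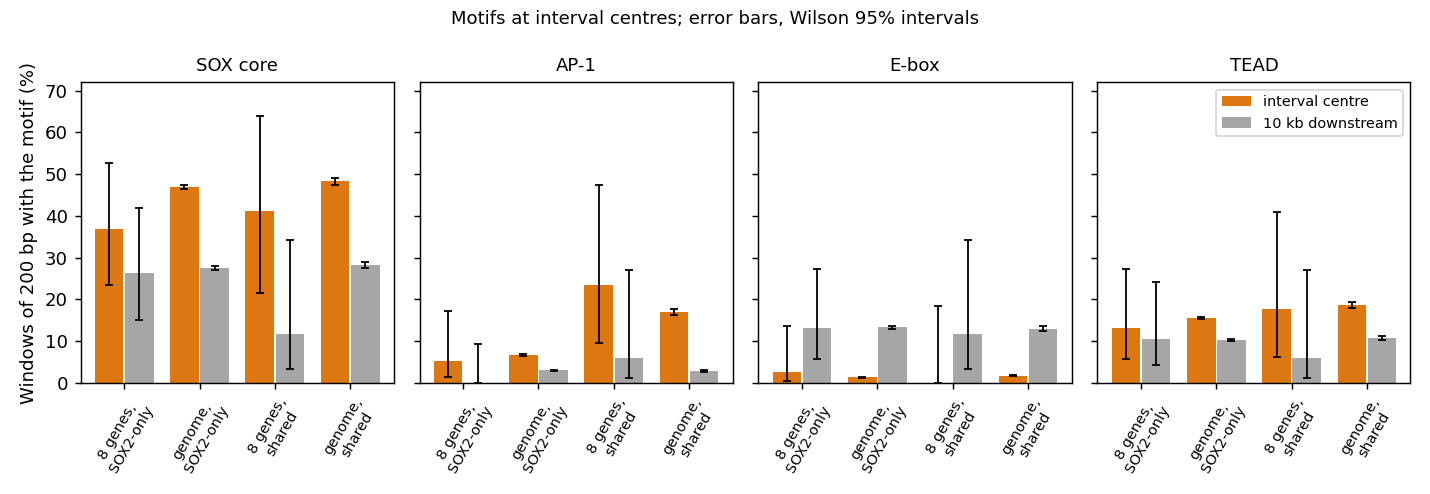
Percent of 200-bp windows holding each motif at interval centres (orange) and 10 kb downstream on the plus strand (grey). Values are for SOX2-only and shared intervals at the 8 genes (38 and 17 intervals) and over the genome. Bars start at 0 and error bars are Wilson 95% intervals. The AP-1 site is found in 23.5% of shared and 5.26% of SOX2-only windows at the 8 genes, and the error bars of these values overlap. The windows cover a smaller part of the wider SOX2-only intervals, and sites outside them are not counted.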

How the data were processed

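Groups were taken from the sample titles. Per the submitters' processing notes, Bowtie2 2.3.4.1, SAMtools, bedtools 2.27.1, SEACR 1.3 and deepTools 3.5.0 were used on hg19. Their roles, the peak threshold and any pooling of replicates are not given in the sources used here. The total and maximum signal per interval are the authors' deposited values, with normalization and depth unknown; the columns follow the order SEACR writes. The seventh column of the SOX2 list is a deposited score of whole numbers without a stated meaning, and the width in the down-sampled list equals end minus start in the deposited rows.

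Exact duplicates (1654 rows in each of the SOX2 and SOX2-DBD lists) were counted once, which left 57907 intervals for SOX2 and 15220 for SOX2-DBD; the down-sampled list held 38291. Positions are 1-based. Windows were clipped at chromosome ends. Distances run from the start of the Ensembl canonical transcript. The 8 genes and both comparison lists were chosen with earlier results of these data known. All 8 genes are named. The rule named every DBD-only and shared interval (the 3 of highest total signal where a gene has over 5), the highest SOX2-only interval and the one nearest the start, protein-coding genes holding an interval centre and the 3 densest genes of each comparison list; other intervals were named after their values were seen. One interval that the rule selects is not reported here on its own. Alternatives covered the window, duplicates, merging, signal, overlap, list and motif. Counting was tested on simulated data, where 200 of 200 windows matched a brute-force count. Sequences and motifs came from GRCh37, the genome of hg19. Software was python 3.11.15 and scipy 1.17.1, with pyfaidx 0.9.0.4 for sequence.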

Additional observations from a re-analysis of the deposited data

Results flagged for a closer look

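The seventh column of the SOX2 list has no stated meaning, is filled in shared intervals alone and enters no comparison above, and it is given here because it carries values that the comparisons did not use. It was 1 or more in 5 of the 17 shared intervals at the 8 genes (29.4%, Wilson 95% interval 13.3 to 53.1), against 34.5% (33.7 to 35.3) of all shared intervals, and no value at these genes exceeded 1. By gene it was 1 in 4 of 5 shared intervals of TWIST1 (80.0%, 37.6 to 96.4), all but the one in HDAC9, and in the single shared interval of TBX15. It was 0 in all 6 of PRRX1 (up to 39.0%), both of SNAI2, both of ZEB2 and the one of ZEB1. The counting intervals of TWIST1 and PRRX1 overlap, and the difference was not tested.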

How the results depend on the processing

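No paired analysis was possible because the lists give no values by replicate, and for the same reason no replicate could be left out in turn. Alternatives are counts and medians without a test. The number of SOX2-list intervals at the 8 genes (55) and of SOX2-DBD intervals (18) followed the window: 27 and 7 on the gene bodies alone, 35 and 10 with 10 kb either side, and 84 SOX2-list intervals with 100 kb. Keeping intervals at or above the median total signal of each list left 27 and 8, and a median density of 16.9 per Mb against 5.80 over all protein-coding genes. Under the other 8 settings the median density lay between 23.3 and 35.4 per Mb and above that of all protein-coding genes, which was 0 with the gene bodies alone and with 10 kb. The shared portion stayed between 25.6% and 30.9%, within its counting interval, under all 13 alternatives. Keeping duplicates, requiring the centre inside the window or defining shared by overlap left the same 55 intervals and the same 30.9%. Those settings changed nothing here and add no further check. The canonical-transcript windows (30.6%) and the sets without TWIST1 (27.3%) or without PRRX1 (27.5%) were among the 13 and were added after the data were seen. The SOX core share was 21.8% in 100 bp, 80.0% over whole intervals and 12.7% for AACAAAG or AACAATG, against 26.8%, 77.1% and 19.1% in the whole SOX2 list, by construction of the settings. The unknown depth and the 55 intervals limit every share.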
